A study of Mus musculus with 4 samples.

Results

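Arginine metabolism genes were examined in RNA sequencing of mouse bone marrow-derived cells (BMDC) cultured with Flt3 ligand. The set was chosen by gene symbol, with earlier results of these data known. It holds 8 of the 26026 genes in the deposited table: the transporter Slc7a2, the arginases Arg1 and Arg2, the nitric oxide synthase Nos2, the argininosuccinate synthase Ass1, and the polyamine enzymes Odc1, Srm and Sms. The groups were Nfkb1-/- cells of the C57/B16 background at day 3, wild-type (C57/B16) cells at day 3, Nfkb1-/- cells at day 5 and wild-type cells at day 5. All cells grew in RPMI medium with serum, 2-BME and Flt3L, the cytokine that drives dendritic cell development, and the medium was replenished on day 3. There was 1 library per group, so no difference below has a replicate check, and how many animals stand behind a library, and of what age and sex, was not stated by the labels.

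Arginine enters myeloid cells through cationic amino acid transporters and is then split between competing enzymes. Arginases cleave it to urea and ornithine, and inducible nitric oxide synthase turns it into citrulline and nitric oxide, while argininosuccinate synthase starts the return of citrulline to arginine. Ornithine decarboxylase makes putrescine, which spermidine synthase and spermine synthase extend to the polyamines that dividing cells need. In macrophages Nos2 is a classic target of NF-kB, and Arg1 is known for its induction by interleukin 4 and in tumour-associated myeloid cells.

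The values are RPKM, reads scaled to transcript length and to the total of the library. Library totals recovered from the RPKM steps ran from 15255070 to 16215214 reads. Reads of a gene given below were recovered in the same way, and 1 of them may have been added to every gene by the authors' processing. Nfkb1, which encodes the NF-kB precursor p105 and its product p50, stood at 56.0 RPKM in knockout and 74.8 RPKM in wild-type cells at day 3, and at 64.7 RPKM in knockout and 113.8 RPKM in wild-type cells at day 5. Transcripts of the targeted gene were thus present in both libraries labelled knockout, at a lower level, and these totals per gene leave undetermined whether they are intact. The 12 dendritic markers listed for the check, among them Flt3, Itgax and H2-Aa, were all above 1 read in every library. Their summed level was 1616 RPKM in knockout and 2752 RPKM in wild-type cells at day 3. At day 5 it was 1825 RPKM in knockout and 4437 RPKM in wild-type cells. Most of it came from Cd74, H2-Aa and H2-Ab1, at 748, 333 and 282 RPKM in knockout cells at day 3. In wild-type cells at day 3 these 3 stood at 1333, 651 and 514 RPKM. Of the 12, 2 (Flt3 and Bst2) were higher in the knockout at day 3 and 0 at day 5. Among all genes averaging 1 RPKM or more, 66.6% were higher at day 3 and 51.2% at day 5. Neutrophil markers were abundant beside the dendritic ones, at 22452 RPKM in knockout and 31866 RPKM in wild-type cells at day 3. In these bulk samples fewer cells of a type and less RNA per cell cannot be told apart.

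Libraries were compared on the log2(RPKM + 1) scale, where changes of low genes come out too small, and a gene was called when its difference was at least 1 in size. Ratios are ratios of RPKM with exact 95% intervals that cover counting error only. The comparisons took in the 11786 genes that averaged 1 RPKM or more, and 6 of the 8 members were among them. Slc7a2 and Nos2 fell under the limit and are described by their values.

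Slc7a2 (NM_007514) encodes CAT2, a cationic amino acid transporter that is induced in activated macrophages. It stood at 0.232 RPKM in knockout and 0.246 RPKM in wild-type cells at day 3, on 29 reads in each. At day 5 it stood at 0.177 RPKM in knockout cells, on 21 reads, and at 0.410 RPKM in wild-type cells, on 51 reads. The wild-type library of day 5 was thus the highest, and the other 3 libraries lay within each other's counting intervals. Set against wild type, the knockout had a ratio of 0.941 (0.543 to 1.63) at day 3 and of 0.431 (0.246 to 0.729) at day 5.

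Nos2 (NM_001313921), the inducible nitric oxide synthase, was at the limit of detection in every library. It held 2 reads in knockout and 2 reads in wild-type cells at day 3, and 1 read in knockout and 2 reads in wild-type cells at day 5, with a highest value of 0.0335 RPKM. All lay under the level of 3 reads, which was between 0.0473 and 0.0502 RPKM in these libraries, so no ratio is given. A difference of Nos2 between genotypes or days was not detectable at this depth. The other synthases, named after their values were seen, were also low, with Nos1 at 1 to 4 reads and Nos3 at 2 to 8 reads in any library.

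**Figure D1:**
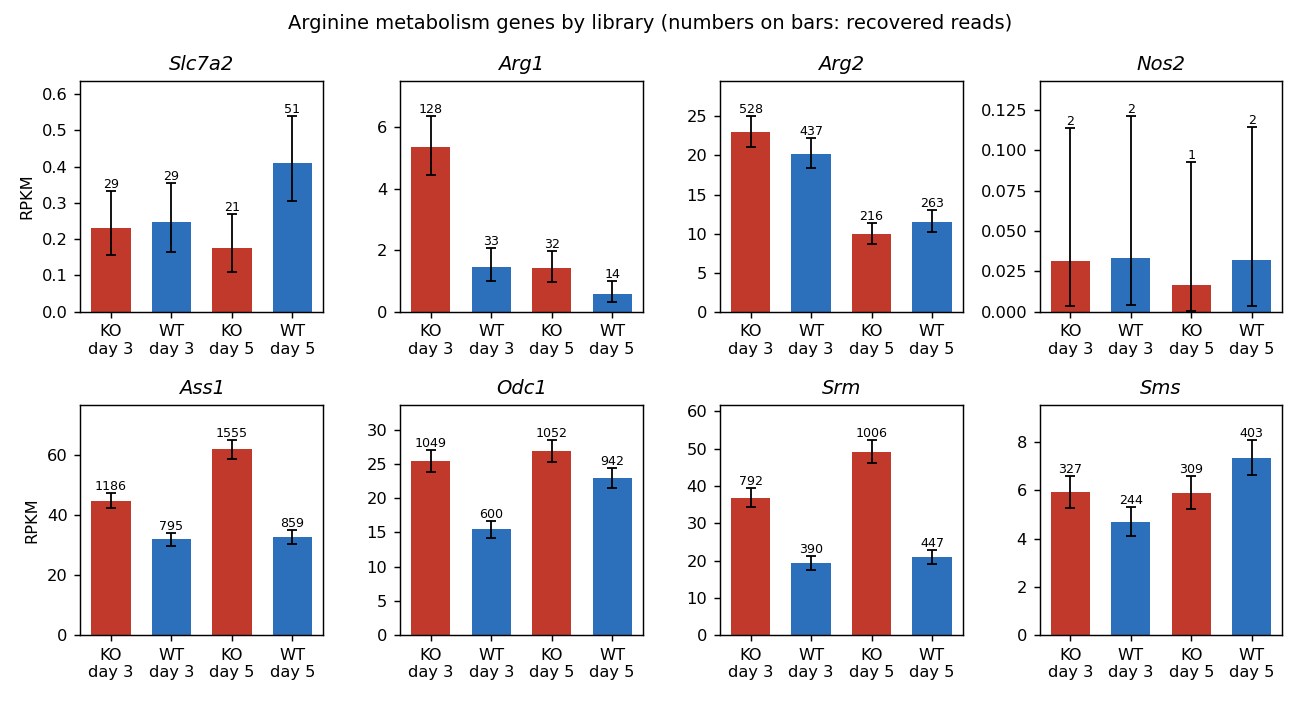
RPKM of the 8 arginine metabolism genes in the 4 libraries, with knockout in red and wild type in blue. Bars are single libraries, the lines are exact 95% Poisson intervals of the reads, and the number on each bar is its recovered reads. Arg1 is highest in knockout cells at day 3 (5.34 RPKM), and Ass1 and Srm are higher in the knockout at each day.

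Arg1 (NM_007482), the cytosolic arginase, was the member with the largest difference between the genotypes at day 3. It stood at 5.34 RPKM in knockout cells, on 128 reads, and at 1.46 RPKM in wild-type cells, on 33 reads, at day 3. At day 5 it stood at 1.41 RPKM in knockout cells, on 32 reads, and at 0.588 RPKM in wild-type cells, on 14 reads. Knockout cells at day 3 were the highest and wild-type cells at day 5 the lowest, while wild-type cells at day 3 and knockout cells at day 5 did not differ beyond counting error. At day 3 the knockout had 3.65 times the wild-type level (2.47 to 5.53), a log2 difference of 1.36 that passed the size rule. At day 5 it had 2.39 times that level (1.24 to 4.85), and the log2 difference of 0.60 fell short of the rule. At day 3, 27 of the 11786 genes had a larger difference in favour of the knockout. With a pseudocount of 5 RPKM in place of 1 the day 3 difference was 0.68 and no longer passed, and with 0.1 RPKM the day 5 difference was 1.13 and did.

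Monocytes and macrophages are known to express Arg1. All 12 markers listed for them were above 1 read, and their summed level was 8210 RPKM in knockout and 6006 RPKM in wild-type cells at day 3, and 7077 RPKM in knockout and 5545 RPKM in wild-type cells at day 5. At day 3, 2 of the 12 passed the size rule upward and none downward, and at day 5, 3 passed upward and 1 downward. Over all genes tested, 0.976% were higher and 0.882% lower past the rule at day 3, and 1.16% and 3.22% at day 5. The summed level of the 10 neutrophil markers was 22452 RPKM in knockout and 31866 RPKM in wild-type cells at day 3, and 2756 RPKM in knockout and 12889 RPKM in wild-type cells at day 5, with none of them at 1 read and 9 past the rule downward at day 5. The part of either cell type in the Arg1 difference was not tested.

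Arg2 (NM_009705), the mitochondrial arginase, was the more abundant arginase throughout. It stood at 22.98 RPKM in knockout and 20.2 RPKM in wild-type cells at day 3, and at 9.90 RPKM in knockout and 11.5 RPKM in wild-type cells at day 5. The day 3 libraries were the high ones in each genotype, and the genotypes lay close together on either day. Knockout over wild type came to 1.14 (0.999 to 1.29) at day 3 and 0.860 (0.715 to 1.03) at day 5, and both intervals included 1. Within a library, on the per-length RPKM scale, Arg2 was 4.30 times the level of Arg1 (3.54 to 5.26) in knockout and 13.8 times (9.68 to 20.3) in wild-type cells at day 3. At day 5 it was 7.04 times (4.84 to 10.5) in knockout and 19.6 times (11.5 to 36.3) in wild-type cells. The balance of these arginase transcripts was therefore nearer to even in the knockout library at each day, with intervals that did not overlap between the genotypes.

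Ass1 (NM_007494), the enzyme that joins citrulline and aspartate on the way back to arginine, was the most abundant member in every library. It stood at 44.8 RPKM in knockout and 31.95 RPKM in wild-type cells at day 3, and at 61.9 RPKM in knockout and 32.7 RPKM in wild-type cells at day 5. The knockout libraries were both above the wild-type ones, which differed from each other by less than counting error. Knockout cells had 1.40 times the wild-type level (1.28 to 1.54) at day 3 and 1.89 times (1.74 to 2.06) at day 5, and the log2 differences of 0.48 and 0.90 stayed under the size rule. Asl, the lyase that completes arginine synthesis, named after its values were seen, stood at 14.8 RPKM in knockout and 17.7 RPKM in wild-type cells at day 3 and at 17.9 RPKM in knockout and 13.4 RPKM in wild-type cells at day 5, so that its genotype order was opposite at the days.

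Odc1 (NM_013614), ornithine decarboxylase, controls entry into the polyamine pathway. It stood at 25.4 RPKM in knockout and 15.4 RPKM in wild-type cells at day 3, and at 26.8 RPKM in knockout and 22.9 RPKM in wild-type cells at day 5. Wild-type cells at day 3 were the low library, and the knockout libraries did not differ from each other beyond counting error. Its level in the knockout was 1.64 times that in wild type (1.49 to 1.82) at day 3 and 1.17 times (1.07 to 1.28) at day 5, with log2 differences of 0.68 and 0.22 that stayed under the size rule.

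Srm (NM_009272), spermidine synthase, transfers an aminopropyl group to putrescine. It stood at 36.8 RPKM in knockout and 19.3 RPKM in wild-type cells at day 3, and at 49.2 RPKM in knockout and 20.9 RPKM in wild-type cells at day 5. The wild-type libraries lay within counting error of each other and far below the knockout libraries. Knockout cells had 1.91 times the wild-type level (1.69 to 2.16) at day 3 and 2.36 times (2.10 to 2.64) at day 5. The log2 difference was 0.90 at day 3, under the size rule, and 1.20 at day 5, which passed it. At day 5, 79 of the 11786 genes had a larger difference in favour of the knockout.

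Sms (NM_001359185), spermine synthase, adds the next aminopropyl group. It stood at 5.91 RPKM in knockout and 4.68 RPKM in wild-type cells at day 3, and at 5.88 RPKM in knockout and 7.32 RPKM in wild-type cells at day 5. The order of the genotypes was thus opposite at the days, and the wild-type library at day 5 was the highest of all 4. Relative to wild type the knockout stood at 1.26 times (1.06 to 1.49) at day 3 and 0.802 times (0.690 to 0.933) at day 5, and neither difference passed the size rule. Within a library, per length, Srm was 6.23 times the level of Sms (5.47 to 7.11) in knockout and 4.11 times (3.49 to 4.84) in wild-type cells at day 3, and 8.37 times (7.36 to 9.54) in knockout and 2.85 times (2.49 to 3.27) in wild-type cells at day 5.

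**Figure D2:**
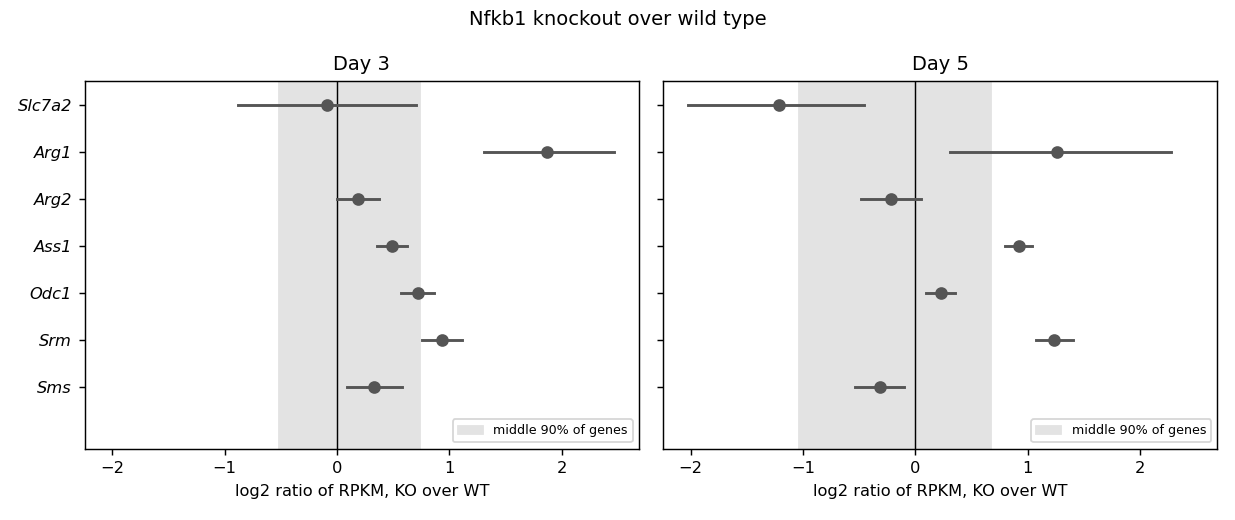
Log2 ratio of RPKM, Nfkb1 knockout over wild type, at day 3 (left) and day 5 (right) for the arginine metabolism genes other than Nos2, which held at most 2 reads. Points are the ratios, lines are exact 95% counting intervals, and the grey band holds the middle 90% of the 11144 genes with means of 1 RPKM or more and 20 reads or more. Arg1 and Srm lie to the right of the band at each day and Ass1 at day 5, Slc7a2 lies to its left at day 5 (log2 ratio -1.21), and Sms and Arg2 change sides of 0 between the days.

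Promoter sequence was at hand for 3 of the 8 members (Ass1, Odc1 and Sms), from RefSeq on build GRCm38.p6, covering 250 bases before to 50 after the start of transcription. They are shown because they were the members with an entry and because the study concerns an NF-kB subunit. Ass1 and Odc1 stood higher in the knockout at each day, and Sms at day 3 only. Whether a motif bears on these differences was not tested. Capitals mark the E-box CACGTG, the site bound by Myc and Max, and the kappaB consensus, the site bound by NF-kB. Sms has entries for a downstream and an upstream start.
Ass1 (chr2:31470020-31470319, + strand): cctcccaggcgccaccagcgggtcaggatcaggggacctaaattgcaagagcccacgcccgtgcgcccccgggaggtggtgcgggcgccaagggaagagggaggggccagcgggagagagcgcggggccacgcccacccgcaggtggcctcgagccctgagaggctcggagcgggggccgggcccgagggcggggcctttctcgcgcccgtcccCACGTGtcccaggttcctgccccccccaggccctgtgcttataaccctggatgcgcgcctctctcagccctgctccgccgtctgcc
Odc1 (chr12:17544623-17544922, + strand): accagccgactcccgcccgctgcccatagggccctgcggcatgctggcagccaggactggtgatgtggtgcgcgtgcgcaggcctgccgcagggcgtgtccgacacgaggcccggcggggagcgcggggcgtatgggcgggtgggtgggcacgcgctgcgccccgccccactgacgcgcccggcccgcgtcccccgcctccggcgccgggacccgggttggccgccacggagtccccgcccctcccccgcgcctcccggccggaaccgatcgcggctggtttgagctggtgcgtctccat
Sms downstream start (chrX:157491319-157491618, - strand): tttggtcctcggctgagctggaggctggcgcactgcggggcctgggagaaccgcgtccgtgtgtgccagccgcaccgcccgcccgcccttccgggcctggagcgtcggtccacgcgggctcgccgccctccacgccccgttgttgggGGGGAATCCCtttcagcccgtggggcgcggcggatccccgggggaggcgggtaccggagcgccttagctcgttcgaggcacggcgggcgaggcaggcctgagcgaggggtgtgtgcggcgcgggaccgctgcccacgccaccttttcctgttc
Sms upstream start (chrX:157492238-157492537, - strand): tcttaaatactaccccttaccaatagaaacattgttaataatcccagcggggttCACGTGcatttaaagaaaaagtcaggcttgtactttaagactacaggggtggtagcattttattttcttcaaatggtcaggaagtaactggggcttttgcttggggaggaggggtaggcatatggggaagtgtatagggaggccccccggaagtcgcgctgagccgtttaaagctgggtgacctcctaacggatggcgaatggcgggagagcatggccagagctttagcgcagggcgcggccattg
The Ass1 promoter held CACGTG at bases -36 to -31 from the start, and the upstream Sms promoter held it at bases -196 to -191. The downstream Sms promoter held the kappaB match GGGGAATCCC, read on both strands, at bases -103 to -94, with no overlap with an E-box. No match to either motif lay in the Odc1 window. Among all 32851 promoter windows of this length, 7.15% held CACGTG and 4.51% held the kappaB consensus on either strand. A match is a description of these letters and shows no binding.

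Counted together between the genotypes at day 3, 1 of the 6 members tested (Arg1) was higher past the size rule and 0 lower, where 0.976% of all genes tested were higher and 0.882% lower. In either direction it was 1 of 6, where 1.86% of all genes were called. All 6 lay above 0, where 66.6% of all genes did, and the median of the 6 was 0.58 against 0.13 for all genes tested. Rescaling the libraries by their median ratio moved the day 3 median of all genes to -0.02 and that of the members to 0.42, with all 6 still above 0 and 47.7% of all genes there. Relative to the median of all genes the day 3 differences were 1.24 for Arg1, 0.77 for Srm, 0.55 for Odc1, 0.35 for Ass1, 0.15 for Sms and 0.05 for Arg2. At day 5, 1 of the 6 (Srm) was higher past the rule, where 1.16% of all genes were, and 0 lower, where 3.22% were (4.39% in either direction). At that day 4 of the 6 lay above 0, where 51.2% of all genes did, and the medians were 0.41 for the members and 0.01 for all genes. With 6 members, chosen with earlier results of these data known, such counts are values of these libraries only.

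Day 5 was set against day 3 within each genotype. The arginases were lower at day 5 in both. Arg1 passed the size rule in the knockout at -1.40, a ratio of day 5 to day 3 of 0.263 (0.173 to 0.390). In wild type its difference was -0.63, a ratio of 0.402 (0.199 to 0.771), which fell short of the rule but passed it at -1.19 with a pseudocount of 0.1 RPKM. Arg2 passed the rule in the knockout at -1.14, a ratio of 0.431 (0.366 to 0.506), and was at -0.76 in wild type, a ratio of 0.570 (0.487 to 0.665). In the knockout these were the 2 of 6 members past the rule downward, where 3.01% of all genes tested were lower and 0.594% higher (3.61% in either direction). In wild type 0 of 6 members passed, where 1.80% of all genes were higher and 2.05% lower (3.85% in either direction). Above 0 lay 3 of the 6 members in the knockout, where 56.1% of all genes did, and 4 of 6 in wild type, where 69.3% did. All 10 neutrophil markers passed the rule downward at day 5 in both genotypes, at 2756 RPKM in sum at day 5 and 22452 RPKM at day 3 in the knockout, and at 12889 RPKM at day 5 and 31866 RPKM at day 3 in wild type. The 5 mast cell and basophil markers all passed it downward in the knockout, at 38.3 RPKM in sum at day 5 and 128.7 RPKM at day 3, and none passed in wild type, at 230.3 RPKM at day 5 and 151.8 RPKM at day 3. Of 5 B cell markers, 4 passed it downward in the knockout, at 67.9 RPKM in sum at day 5 and 211.5 RPKM at day 3, and 2 in wild type, at 137.5 RPKM at day 5 and 257.7 RPKM at day 3. The 6 erythroid markers summed to 4.97 RPKM at day 5 and 53.8 RPKM at day 3 in the knockout. In wild type they summed to 14.3 RPKM at day 5 and 254.1 RPKM at day 3. The T and NK cell sum and the monocyte and macrophage sum were also lower at day 5 in both genotypes. Dendritic and stromal sums were higher at day 5 in both, and the megakaryocyte sum in wild type only. The part of any of these cell types in the arginase values was not tested.

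Ass1 and the polyamine enzymes had no interval below 1 between the days. Ass1 had a ratio of day 5 to day 3 of 1.38 (1.28 to 1.49) in the knockout and of 1.02 (0.928 to 1.13) in wild type. Srm had a ratio of 1.34 (1.22 to 1.47) in the knockout and of 1.08 (0.945 to 1.25) in wild type. Odc1 and Sms showed the other arrangement, with ratios near 1 in the knockout, 1.06 (0.969 to 1.15) and 0.995 (0.849 to 1.17), and ratios of 1.49 (1.34 to 1.65) and 1.56 (1.33 to 1.84) in wild type. None of these passed the size rule. On the same scale Odc1 was 2.71 times the level of Arg2 (2.34 to 3.15) at day 5 and 1.11 times (0.995 to 1.23) at day 3 in the knockout, and 1.99 times (1.74 to 2.29) at day 5 and 0.764 times (0.674 to 0.866) at day 3 in wild type.

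**Figure D3:**
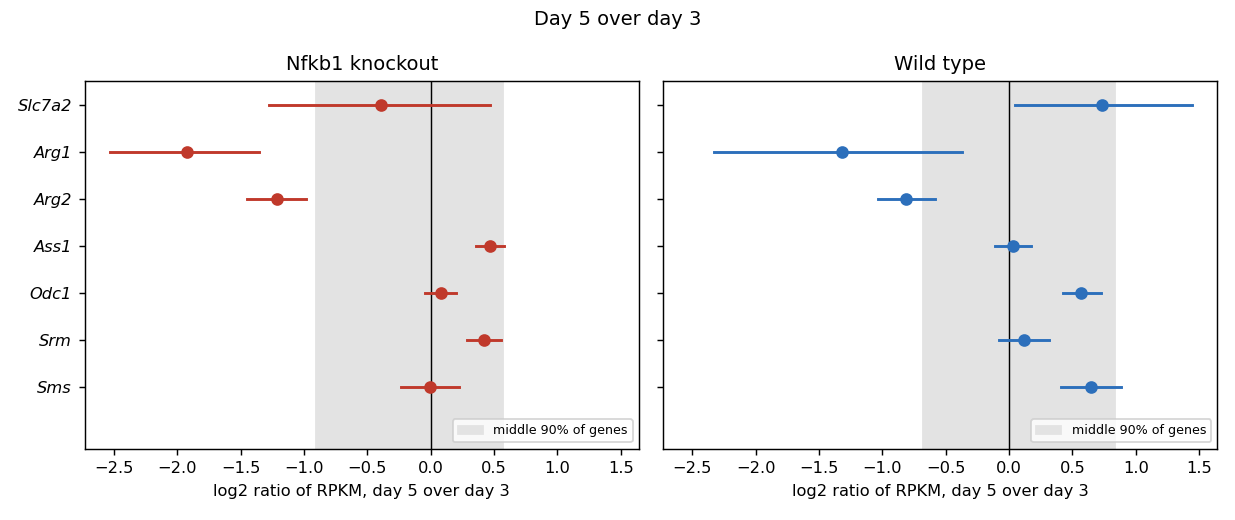
Log2 ratio of RPKM, day 5 over day 3, in Nfkb1 knockout (left, red) and wild-type cells (right, blue) for the arginine metabolism genes other than Nos2. Points are the ratios, lines are exact 95% counting intervals, and the grey band holds the middle 90% of the 11144 genes with means of 1 RPKM or more and 20 reads or more. Arg1 and Arg2 lie left of the band in both genotypes, at log2 ratios of -1.93 and -1.21 in the knockout and -1.32 and -0.81 in wild type.

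The genotype difference moved between the days by less than the size rule for each member tested. It was larger at day 5 for Ass1 (by 0.43) and Srm (by 0.30) and smaller at day 5 for Arg1 (-0.76), Sms (-0.56), Odc1 (-0.47) and Arg2 (-0.38). The median of all genes for this quantity was -0.14, and 1.00% of them passed the rule upward and 2.63% downward (3.63% in either direction) against 0 of 6 members. For 2 of the 6 the change lay above 0, where 33.3% of all genes did.

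An additive limma fit with genotype and day over the 4 libraries, in which the days supply the only spread, was run across all 11786 genes. It called 0 genes at a Benjamini-Hochberg adjusted p of 0.05 (0.00% of those tested). At an unadjusted limma p under 0.05 there were 2278 genes, 19.3% of those tested. With the adjusted threshold an intensity trend called 19 and voom on the recovered reads called 822. Srm stood above wild type in the knockout at each day, with a mean log2 difference of 1.05 ± 0.16 (SE) and a limma adjusted p of 0.082, which ran from 0.0023 to 0.28 over the settings tried. Arg1 was also higher at both days, at 0.98 ± 0.22 (SE) with a limma adjusted p of 0.12, and Ass1 at 0.69 ± 0.17 (SE) with 0.14. Over the settings these ran from 0.017 to 0.48 and from 0.019 to 0.41. Odc1 was at 0.45 ± 0.18 (SE) with 0.25, and Arg2 (-0.01) and Sms (0.00) had no common direction, with limma adjusted p of 0.99 and 0.996.

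The genes around the members were followed in 10 lists with 70 genes, of which 59 had a mean of at least 1 RPKM. Between the genotypes at day 3, 0 of the 59 passed the size rule, where 1.86% of all genes did. Of the 59, 47 lay above 0, with a median of 0.30, where 66.6% of all genes lay above 0 with a median of 0.13. With the median ratio rescaling 41 of the 59 lay above 0, with a median of 0.14, where 47.7% of all genes lay above 0 with a median of -0.02. At day 5, 1 was higher and 2 lower past the rule, where 1.16% of all genes were higher and 3.22% lower (4.39% in either direction). At that day 35 of the 59 lay above 0, with a median of 0.04, where 51.2% of all genes lay above 0 with a median of 0.01. Among the arginine transport genes 0 of 6 passed at either day. Slc7a1, the main transporter for arginine in most cells, named after its values were seen, stood at 10.0 RPKM in knockout and 7.35 RPKM in wild-type cells at day 3 and at 15.5 RPKM in knockout and 9.33 RPKM in wild-type cells at day 5. It was thus far above Slc7a2 per length in every library. Of the 4 further urea cycle genes listed beside Ass1 and the arginases, Otc, Cps1 and Nags stood at 1 read in every library, and Asl was the only one tested.

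The routes that leave ornithine and the polyamines held no gene past the rule between genotypes. All 7 genes that lead between ornithine, proline and glutamate lay above 0 at day 3, with a median of 0.46, and 6 at day 5, with a median of 0.17, which became 6 and 5 with the median ratio rescaling. Of 11 genes of polyamine control and turnover, 10 lay above 0 at day 3 and 7 at day 5, with medians of 0.29 and 0.02, which became 9 and 6 genes with that rescaling. Over all genes the shares above 0 were 66.6% at day 3 and 51.2% at day 5, and 47.7% and 49.1% with the rescaling. This list holds Amd1 and Amd2, which are near-identical copies and cannot be counted as separate observations. The 4 hypusine genes, which use spermidine to modify the translation factor eIF5A, had a median of 0.39 at day 3 and one of 0.26 at day 5. The 3 methionine supply genes had medians of 0.36 and 0.07, the 4 creatine genes of 0.18 and -0.42, and the 6 genes of nitric oxide synthesis and control of 0.29 and 0.05. In the creatine list Ckb, brain-type creatine kinase, was higher at day 5 in wild type by 1.20, where 1.80% of all genes were higher past the rule. It stood there at 74.0 RPKM at day 5 and 31.6 RPKM at day 3.

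Among 12 known inducers of Arg1 and Nos2, 2 passed the size rule between genotypes, both at day 5, 1 upward and 1 downward. At that day 1.16% of all genes were higher past the rule and 3.22% lower (4.39% in either direction). Cebpb, a factor that binds the Arg1 enhancer in macrophages, was higher by 1.22, at 49.5 RPKM in knockout and 20.7 RPKM in wild-type cells. At day 3 it stood at 57.6 RPKM in knockout and 34.7 RPKM in wild-type cells, a difference of 0.72. Irf8, a factor of dendritic cell and monocyte fate, was lower, with a difference of -1.01, at 119.3 RPKM in knockout and 241 RPKM in wild-type cells, and stayed just under the rule with the libraries rescaled to the same sum (-0.98) or a pseudocount of 5 RPKM (-0.99). In wild type it was higher at day 5 than at day 3 by 1.14, or 0.97 after the median ratio rescaling. The median of the list was 0.13 at day 3 and 0.02 at day 5, beside 0.13 and 0.01 for all genes.

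In the Myc network, of which Odc1 and Srm are textbook targets, 1 of 5 genes passed the rule between genotypes, downward at day 5. At that day 3.22% of all genes were lower past the rule and 4.39% passed in either direction. The median of the list was -0.10 at day 3 and -0.27 at day 5, beside 0.13 and 0.01 for all genes. Mxd1, an antagonist of Myc, was lower in the knockout at day 5, with a difference of -1.56, at 11.0 RPKM in knockout and 34.5 RPKM in wild-type cells. It was also lower at day 5 than at day 3, with differences of -2.05 in the knockout and -1.06 in wild type. With a pseudocount of 5 RPKM the wild-type difference was -0.98. Mxi1, a related antagonist, was lower at day 5 in the knockout, at 6.57 RPKM at day 5 and 14.95 RPKM at day 3, with a difference of -1.08 that came to -0.99 with the libraries rescaled to the same sum and -0.79 with a pseudocount of 5 RPKM. Myc itself, named after its values were seen, stood at 35.6 RPKM in knockout and 21.4 RPKM in wild-type cells at day 3 and at 40.4 RPKM in knockout and 24.8 RPKM in wild-type cells at day 5. The knockout had 1.66 and 1.63 times the wild-type level at these days, with counting intervals that excluded 1, and neither difference passed the rule. Max and Mnt were also named after their values were seen. For Max the knockout had 0.872 times the wild-type level (0.812 to 0.937) at day 3 and 0.825 times (0.763 to 0.891) at day 5. For Mnt the ratio was 1.02 at each day, with intervals that included 1.

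**Figure D4:**
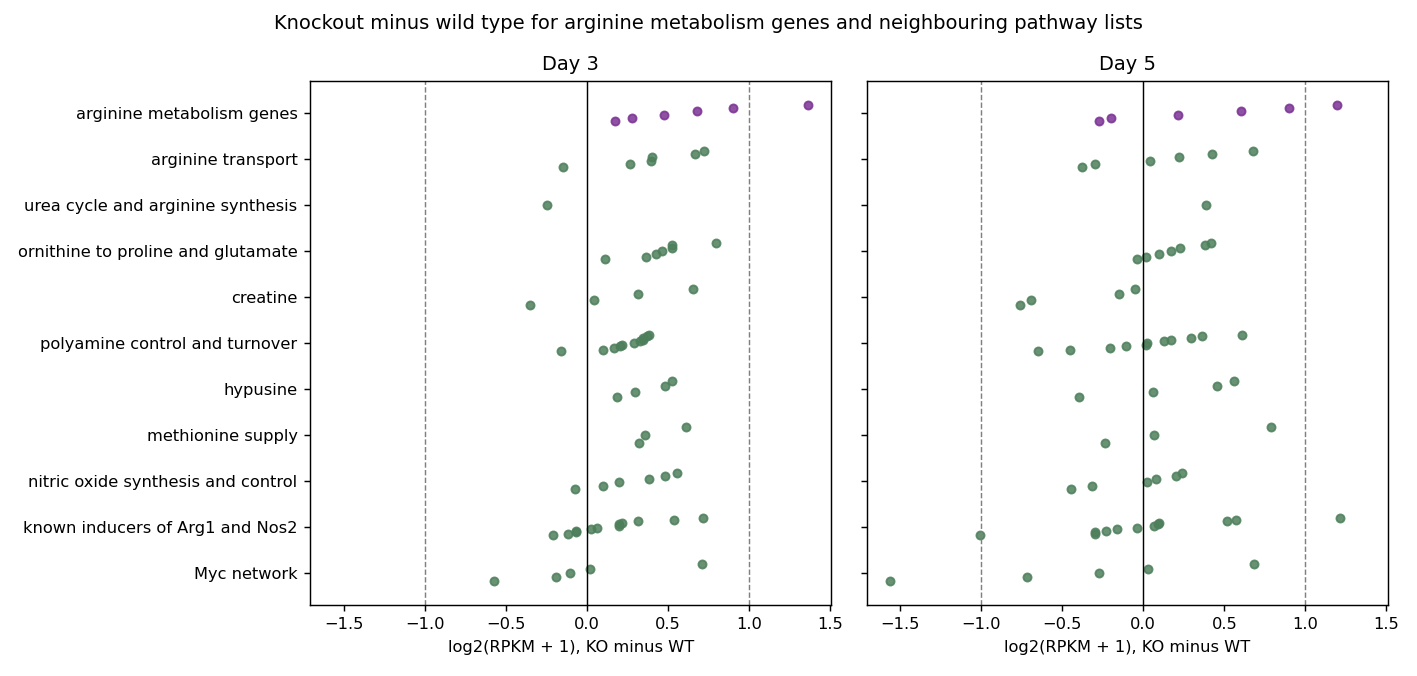
Knockout minus wild-type differences of log2(RPKM + 1) at day 3 (left) and day 5 (right) for the 6 arginine metabolism genes tested (purple) and for the genes of 10 neighbouring lists with a mean of at least 1 RPKM (green). Each point is a gene and the dashed lines mark the size rule of 1. At day 3 Arg1 alone lies past it, and at day 5 Srm and Cebpb lie past it upward and Mxd1 and Irf8 downward.

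Genes with the most similar course over the 4 libraries were found among 11144 genes by Euclidean distance between log2(RPKM + 1) values centred on their mean. For Arg1 they were Adgrl4 (distance 0.28), Il2ra (0.36), Ly6c2 (0.43), Rag1 (0.45) and Lilra5 (0.48). Adgrl4, the nearest, stood at 7.40 RPKM in knockout and 2.89 RPKM in wild-type cells at day 3. At day 5 it stood at 3.12 RPKM in knockout and 1.63 RPKM in wild-type cells. Ly6c2, which is also in the monocyte and macrophage list, stood at 829 RPKM in knockout and 405 RPKM in wild-type cells at day 3. At day 5 it stood at 469 RPKM in knockout and 228 RPKM in wild-type cells. Of the 12 markers in that list, 7 lay above 0 between genotypes at each day, where 66.6% of all genes did at day 3 and 51.2% at day 5. For Odc1 they were Psmd5 (0.01), Isoc1 (0.01), Aunip (0.03), Tomm40l (0.04) and Gtf2h4 (0.05). Psmd5, a proteasome assembly factor, stood at 17.8 RPKM in knockout and 10.7 RPKM in wild-type cells at day 3 and at 18.5 RPKM in knockout and 15.9 RPKM in wild-type cells at day 5. For Nos2, at 1 or 2 reads, the measure returned the nearly constant genes Atf7, Dennd4c, Becn1, Ikbkb and Rnf19b (0.01 to 0.02). Such a course rests on 4 libraries, and with other pseudocounts only 2 or 3 of the 5 genes of Arg1 and of Odc1 stayed among the nearest.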

How the data were processed

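Polyadenylated RNA was sequenced in 4 libraries. Trizol extraction and the Kapa mRNA HyperPrep chemistry come from the labels' protocols. HISAT2, SAMtools and mm9 are named in the submitters' processing notes, and how reads were counted, on which annotation and with which strand setting is not given in the sources used here. Per the file headers, the authors deposited 1 RPKM value per gene and library, for 26026 genes. Columns were matched to libraries by genotype and day.

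No value was 0, so a gene at 1 read may have had none. Whole reads were recovered from the RPKM steps for all 26026 genes (tolerance 0.003 reads). Reference lengths, known for 22187 genes, fixed the multiple for 857 of them. Where none was known, reads may be understated by an integer factor. Intervals and the floor of 3 reads cover counting error only, and without molecular identifiers reads may repeat a molecule.

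Values were analysed as log2(RPKM + 1) on the whole table. With 1 library per group, a difference of at least 1 (a 2-fold change) served as a size rule, not a test. The additive fit used limma 3.58.1 in R 4.3.3, and the rest used Python 3.11.15 with scipy 1.17.1. The fit has 1 residual degree of freedom. The promoter entries were matched by symbol.

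Members and lists were chosen with earlier results of these data known. The text names all members, Nfkb1, pathway genes past the rule (at most 4 per list and comparison) and the 5 genes nearest in course to Arg1, Nos2 and Odc1. Alternatives were pseudocounts of 0.1 and 5 RPKM, filters at none, 5 RPKM or 20 reads on average, rescaling by median ratio or to equal sums, and limma with an intensity trend or voom.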

Additional observations from a re-analysis of the deposited data

Results flagged for a closer look

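The genotype difference of Sms pointed opposite ways at the days, with counting intervals away from a ratio of 1 at each. At day 3 the interval of the log2 ratio, 0.09 to 0.58, included the median log2 ratio of all genes, 0.16. The day 3 difference was thus not apart from the general shift between these libraries. Knockout minus wild type was 0.28 at day 3 and -0.28 at day 5 on the log2(RPKM + 1) scale, a change of -0.56 between the days. This change kept its direction under every pseudocount and rescaling tried, from -0.64 to -0.35, and the filters could not alter it. With 1 library per genotype and day the difference was not tested, and 11.5% of all genes tested moved further down.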

How the results depend on the processing

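Over the alternatives, 249 of the values of members kept their side of the size rule or threshold and their direction when past it, 6 newly passed it and 3 no longer did. Of the 249, 36 came with no filter, 30 at a mean of at least 5 RPKM and 35 with at least 20 reads. A filter leaves the log2 differences of a member unchanged, so under these settings only the limma values could move. None of the called values changed sign. Near 0, the differences of Ass1 and Srm between days in wild type (-0.13 to 0.03 and -0.05 to 0.12) and of Sms in the knockout (-0.03 to 0.07) changed sign with the scaling. Members past the size rule numbered 2 at day 5 between genotypes (Arg1 joined) and 1 between days in wild type with a pseudocount of 0.1 RPKM. They numbered 0 at day 3 between genotypes and 0 between days in the knockout with 5 RPKM, and 0 and 1 at a mean of at least 5 RPKM, a limit that leaves Arg1 out. Counts of all genes past the rule, in the order knockout against wild type at day 3 and day 5, day 5 against day 3 in wild type and in the knockout, and change of the genotype difference, were 219, 517, 454, 425 and 428. They were 449, 873, 804, 681 and 817 with 0.1 RPKM, 47, 160, 136, 160 and 114 with 5 RPKM, and 110, 318, 260, 267 and 209 at a mean of at least 5 RPKM. With at least 20 reads they were 138 at day 3 and 278 for the change of the genotype difference. The split into higher and lower genes was 115 and 104 at day 3, 212 and 242 between days in wild type, and 118 and 310 for the change between days. It became 70 and 156, 145 and 346, and 151 and 214 with the median ratio rescaling, and 81 and 125, 197 and 266, and 141 and 229 at the same sum of RPKM. Additive limma, with 0 genes at an adjusted p of 0.05, gave 20 at a mean of at least 5 RPKM, 151 with at least 20 reads, 19 with an intensity trend and 822 with voom. Srm passed with at least 20 reads, and Srm, Arg1 and Ass1 passed with voom, while Odc1 passed in none. The cause of these shifts was not tested. Stricter filters leave fewer genes to count, while the limma calls were more numerous under them. No paired analysis was possible because the labels carry no replicate numbers and each group has 1 library. Leaving out a library could not be fitted, since 3 libraries leave no residual degree of freedom. Few reads limit the precision of Nos2, Slc7a2 and Arg1, and every comparison is limited by having 1 library per group.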
